A study of Mus musculus with 7 samples.

Results

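The comparison set the hippocampus of FAD mice given the CD38 injection against the hippocampus of wild-type mice given PBS. Its members were 15 of the 47 wells of the count table, 7 from FAD CD38 mice and 8 from WT PBS mice, with 1 well per mouse. They were chosen by well name (hippocampus, genotype, injection), and a well was used only where its name and the sample sheet gave the same treatment. The study, by its title, targeted CD38 in mice that model Alzheimer's disease, and it profiled cortex and hippocampus of 24 mice in 7 library pools (pools 5 to 11). A WT mouse of pool 7 gave cortex only. A further 7 hippocampus wells came from FAD mice given IgG, the control injection within the FAD genotype. The hippocampus well of 1 more FAD mouse, of pool 8, carries conflicting treatment labels and entered no comparison. The 3 groups were FAD mice with CD38 (anti-CD38), FAD mice with IgG, and WT mice with PBS. Genotype and injection therefore differed together between FAD CD38 and WT mice, and their parts cannot be told apart in that contrast. The labels named neither the transgenes nor the promoter of the FAD line, and gave no age or sex. Each pool held 1 FAD CD38 hippocampus. Each pool also held 1 WT hippocampus, except pool 8, which held 2. RNA was measured by bulk mcSCRB-seq, a method in which each well carries its own barcode and wells are pooled before library preparation.

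Mouse lines of the FAD kind carry mutations of familial Alzheimer's disease and deposit amyloid plaques. Microglia, the brain's macrophages, surround plaques and switch on a programme that depends on the surface receptor Trem2 and its adaptor Tyrobp, with lysosomal, lipid and antigen-presentation genes among its members. Astrocytes respond with intermediate filament and acute-phase genes. In the hippocampus, inhibitory interneurons that make somatostatin, cortistatin and related peptides control the firing of pyramidal cells. CD38 is an enzyme on the cell surface that consumes NAD, the cofactor of energy metabolism.

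Each FAD CD38 well held 1428454 to 3072058 counts (median 2641237), and each WT well 2420206 to 4771349 (median 3275734.5). The means were 2514700 ± 589000 in FAD CD38 mice and 3409300 ± 873000 in WT mice (SD, n = 7 and 8, two-sided exact permutation test over 6435 splits, p = 0.041, adjusted p = 0.0615 over 3 measures). The share of mitochondrially encoded messages was 4.55% ± 1.46 in FAD CD38 mice and 5.69% ± 0.778 in WT mice (exact permutation p = 0.0347, adjusted p = 0.0615). The share of ribosomal RNA was 10.1% ± 6.39 in FAD CD38 mice and 9.19% ± 8.66 in WT mice (exact permutation p = 0.737). These tests permuted labels over all FAD CD38 and WT wells, without regard to pool. Among FAD CD38 and WT wells, a pair stood apart. The FAD CD38 mouse of pool 7 had the lowest total, 24% ribosomal RNA and 1.25% mitochondrial messages. The second WT mouse of pool 8 had 30.5% ribosomal RNA and 4.11% mitochondrial messages. The comparisons and list counts were also computed without these wells. FAD IgG mice had wells of high ribosomal RNA too, at 18.8% in pool 9 and 13.4% in the second well of pool 6. Markers of hippocampal fields were present in each group: Prox1, a transcription factor of dentate granule cells, averaged 37.7 CPM (counts scaled to one common library size) in FAD CD38 mice and 27.9 CPM in WT mice, and Fibcd1, a CA1 gene, averaged 40.7 CPM and 51.0 CPM in FAD CD38 and WT mice.

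Of 12728 genes tested, 580 (4.56%) were higher and 96 (0.754%) were lower in FAD CD38 than in WT hippocampus at an adjusted p under 0.05. In what follows, rose and fell are used for these genes, and fold changes are log2, FAD CD38 minus WT, with their standard errors. A gene was tested if enough wells held enough counts, whichever group they came from. Genes near 0 in WT mice were thus tested only through FAD mice and could hardly fall, which favours rises in the list counts below. Every FAD CD38 value lay above every WT value at 297 genes (2.33%), and below every WT value at 32 genes (0.251%). The median log2 fold change over all genes tested was 0.01. The number of lower genes was 59 without the FAD CD38 well of pool 7, 289 without the second WT well of pool 8 and 389 without both, while the number of higher genes was 591, 828 and 660. Of the 580 and 96 genes, 521 and 48 were also called without the FAD CD38 well of pool 7, 580 and 94 without the second WT well of pool 8, and 540 and 95 without both. With only FAD CD38 and WT mice in the fit 349 and 20 of them were called, and without pool 10, 435 and 18. DESeq2 called 660 higher and 238 lower, so that 26.5% of its calls were lower, against 14.2% of the calls of edgeR.

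Cst7, a cystatin that plaque microglia make and resting microglia hardly do, ranged from 79.8 to 238 CPM in FAD CD38 mice (median 199) and from 0.598 to 4.27 CPM in WT mice (median 1.62). The lowest FAD CD38 mouse was that of pool 7, and it still lay above every WT mouse. The rise was 6.62 ± 0.29 (adjusted p = 2.76e-11). C1qb, a chain of the complement starter C1q, had 464 to 654 CPM in FAD CD38 mice (median 546) and 98.9 to 134 CPM in WT mice (median 119), a rise of 2.27 ± 0.12 (adjusted p = 2.08e-10). Its groups did not overlap. Crhbp, which binds and buffers corticotropin-releasing hormone, had 12.9 to 26.9 CPM in FAD CD38 mice (median 20.7) and 31.6 to 38.3 CPM in WT mice (median 33.2), a fall of −0.71 ± 0.12 (adjusted p = 0.000736). Cort, the neuropeptide cortistatin, had 10.1 to 16.3 CPM in FAD CD38 mice (median 12.3) and 18.2 to 33.9 CPM in WT mice (median 24.3), a fall of −0.97 ± 0.24 (adjusted p = 0.0181). At both genes every FAD CD38 mouse lay below every WT mouse. Cort no longer passed when any of pools 5, 7, 10 and 11 was left out (adjusted p at most 0.0731). In bulk tissue, fewer cells of a type and less RNA per cell cannot be told apart.

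**Figure D1:**
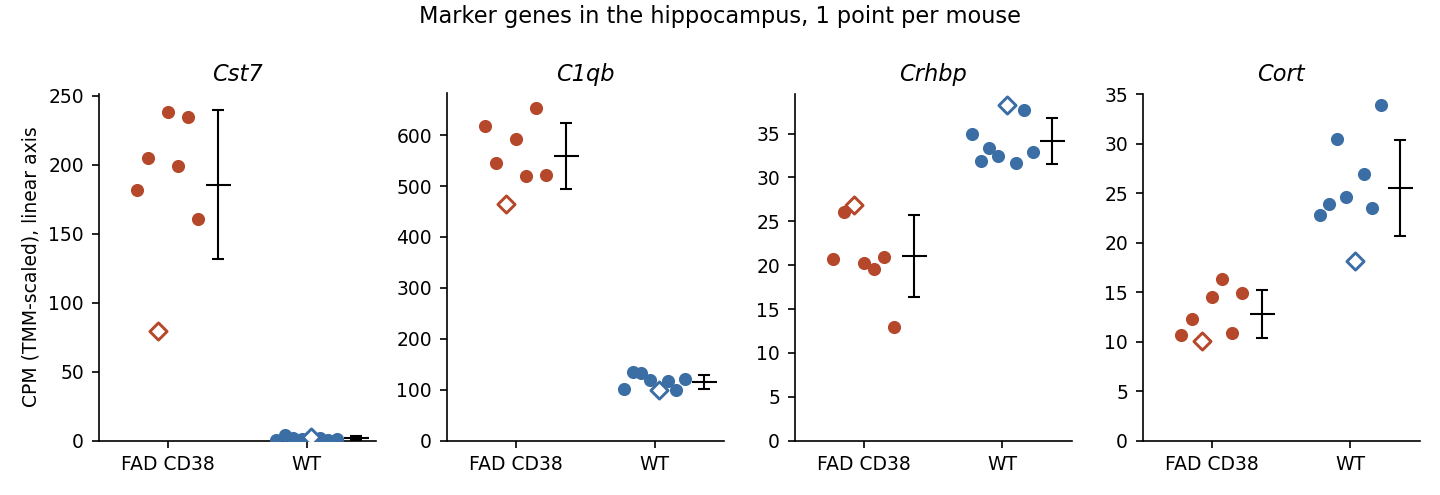
Levels of Cst7, C1qb, Crhbp and Cort in the hippocampus of each mouse, in CPM on a linear axis, with FAD CD38 mice left and WT mice right; bars are the mean ± SD and white diamonds are the FAD CD38 mouse of pool 7 and the second WT mouse of pool 8. The 7 FAD CD38 mice lie above the 8 WT mice for Cst7 and C1qb and below them for Crhbp and Cort.

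Plaque-associated microglia genes formed the list with the most members called: 35 of 39 tested rose and none fell (median 2.68), where 4.56% of all genes rose. The groups did not overlap at 28 of the 39, against 2.33% of all genes. Its leading members were Cst7, Tyrobp (2.86 ± 0.13), the lysozyme Lyz2 (3.48 ± 0.18), the chemokine Ccl6 (3.84 ± 0.21), the pore-forming protein Mpeg1 (3.12 ± 0.17) and the growth factor Igf1 (2.71 ± 0.15). Trem2 had 103 to 284 CPM in FAD CD38 mice (median 262) and 16.2 to 31.0 CPM in WT mice (median 26.8), a rise of 3.15 ± 0.20 (adjusted p = 1.53e-09). The lowest FAD CD38 mouse was again that of pool 7, and it was the lowest of its group at 33 of the 39 genes. Without that well 37 of the 39 rose. The lysosomal pump subunit Atp6v0d2 and the integrin Itgax, both named after their values were seen, had too few WT counts for a fitted fold to be read. Atp6v0d2 had 62 counts over the 7 FAD CD38 mice and 0 over the 8 WT mice. Single FAD CD38 mice had 0 to 14 counts of it, so the groups overlapped. Over the pooled counts Atp6v0d2 was 32.6-fold higher when set against a floor of 3 counts over the WT group. Itgax had 165 counts in FAD CD38 mice and 2 in WT mice, a ratio of library-scaled counts of 130 (95% counting interval 35.4 to 1080).

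Of 21 genes of resting microglia tested, 13 rose and none fell (median 0.99). Csf1r, the receptor for the microglial survival signal, rose by 1.38 ± 0.15, the integrin Itgam by 1.65 ± 0.19 and the lectin Siglech by 1.04 ± 0.13. All 21 fold changes were above 0, against 51.5% of all genes.

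Of 15 tested genes around Trem2 and Tyrobp, 14 rose (median 1.56), among them Laptm5 (2.11 ± 0.15), the adaptor Hcst (2.94 ± 0.22) and the phosphatase Ptpn6 (2.41 ± 0.24). Of 5 Fc gamma receptor genes, whose products bind the constant part of IgG, 4 rose (median 2.31). These were the signalling chain Fcer1g (2.31 ± 0.13), Fcgr3 (2.26 ± 0.13), the inhibitory receptor Fcgr2b (3.29 ± 0.20) and the high-affinity receptor Fcgr1 (2.35 ± 0.20), each with no overlap between groups. Fcgr2b had 23.5 to 38.1 CPM in FAD CD38 mice and 0.491 to 3.77 CPM in WT mice. Fcgrt, the receptor that recycles IgG, had −0.15 ± 0.17 and did not pass. Of 13 complement genes, 11 rose (median 2.27), with C1qa, C1qc, C4b, C4a and the C3a receptor C3ar1 between 2.29 and 3.10. All 8 tested genes of Toll-like receptors and their partners rose (median 2.60), led by Ly86 (2.52 ± 0.13), Tlr2 (3.39 ± 0.25) and Cd14 (2.78 ± 0.29). Another 5 members were too low to test, with at most 57 counts over the FAD CD38 mice and 39 over the WT mice. Of 14 tested chemokine and chemokine receptor genes, 9 rose (median 1.63), and 8 others were too low to test. Of the 9, 4 are also on another list, and the 10 tested genes on no other list had a median of 0.52. Ccl3 averaged 8.82 CPM in FAD CD38 mice and 0.178 CPM in WT mice (5 counts in all WT wells), and Ccl4 averaged 8.55 CPM and 0.254 CPM (7 counts in all WT wells).

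MHC class II genes, which present peptides from outside the cell to helper T cells, had the highest list median, 2.99, with 7 of 8 tested genes higher. A further 3 were too low to test. Cd74, the invariant chain, had 15.1 to 32.4 CPM in FAD CD38 mice and 0 to 2.85 CPM in WT mice (4.35 ± 0.38, adjusted p = 1.69e-07). The antigen-binding chains H2-Aa (3.71 ± 0.40), H2-Ab1 (3.45 ± 0.42) and H2-Eb1 (3.40 ± 0.46) rose as well. H2-DMb1 (2.0 ± 0.22), H2-Ob (2.57 ± 0.40) and the co-stimulator Cd86 (2.22 ± 0.18) completed the 7, and H2-DMa had 0.53 ± 0.16 (adjusted p = 0.0704). H2-Aa ran from 16.6 to 44.0 CPM across the 7 FAD CD38 mice, with pools 10 and 11 highest and pools 5 and 6 lowest. Class II promoters carry a Y box with the letters CCAAT. In the 250 bases before the annotated start, read on both strands, CCAAT was found at 5 of the 5 class II genes with a RefSeq promoter, and at 37.5% of all 27025 genes with one. Windows of 60 bases are shown for the antigen-binding chains that rose and had a promoter (RefSeq, GRCm38.p6, 5′ to 3′ on the gene's strand), with CCAAT or its reverse complement in capitals: H2-Aa at chr17:34287840-34287899 on the minus strand and H2-Eb1 at chr17:34305804-34305863 on the plus strand.
H2-Aa: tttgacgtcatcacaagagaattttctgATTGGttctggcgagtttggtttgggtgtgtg
H2-Eb1: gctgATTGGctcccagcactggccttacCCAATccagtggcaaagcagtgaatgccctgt

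MHC class I genes, which present peptides from within the cell, rose at 10 of 15 tested (median 1.2). Of the 10, 4 are also on another list, and the 11 tested genes on no other list had a median of 0.74. B2m, the light chain shared by class I molecules, rose by 1.84 ± 0.17, the heavy chains H2-D1 by 1.76 ± 0.19, H2-K1 by 1.55 ± 0.23 and H2-T23 by 1.43 ± 0.17, and the immunoproteasome subunits Psmb8 and Psmb9 by 2.08 ± 0.17 and 1.6 ± 0.24. Class I heavy chains are close copies of one another, and how reads shared between copies were counted is not given in the sources used here. The same limit holds for C4a and C4b and for Ifit3 and Ifit3b.

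Genes of the type I interferon response, which cells switch on after sensing nucleic acid or interferon, rose at 18 of 26 tested (median 1.36), and all 26 fold changes were above 0. A further 11 were too low to test. Ifi27l2a rose by 3.26 ± 0.26, Usp18, which ends interferon receptor signalling, by 2.51 ± 0.29, Bst2, which tethers budding virus, by 1.94 ± 0.17, and Ifit3, a binder of the antiviral RNA response, by 1.65 ± 0.20. Ifit3 had 23.5 to 44.4 CPM in FAD CD38 mice and 4.91 to 12.9 CPM in WT mice. Of 7 interferon-induced GTPases, 4 rose: Iigp1 (1.66 ± 0.40), Igtp (1.18 ± 0.30), Gbp2 (1.01 ± 0.29) and Irgm1 (0.84 ± 0.20). Gbp2 did not pass without both wells that stood apart, when 3 of the 7 rose. The interferon-stimulated response element, searched on both strands as GAAA, then any 2 bases, then GAAA, lay within 250 bases before the start of 7 of 20 interferon genes with a promoter (Ifit1, Ifit3, Ifit3b, Stat2, Bst2, Rsad2 and Trim30a, named for the match, with Ifit1 at 1.74 ± 0.32 and Rsad2 at 1.32 ± 0.29) and of 3 of 13 class I genes (H2-T22, H2-T23 and B2m). It was found at 3.46% of all genes with a promoter, at 25 of 428 genes that rose (5.84%) and at 2 of 73 that fell (2.74%). Among the carriers named, Stat2 and H2-T22 did not pass. The windows show matches from genes that rose, with the element or its reverse complement in capitals, so that its place and strand can be compared. They lie at chr8:71537562-71537621 (Bst2, minus), chr19:34583382-34583441 (Ifit3, plus), chr19:34640779-34640838 (Ifit1, plus), chr12:26456538-26456597 (Rsad2, minus), chr2:122147523-122147582 (B2m, plus) and chr17:36032791-36032850 (H2-T23, minus).
Bst2: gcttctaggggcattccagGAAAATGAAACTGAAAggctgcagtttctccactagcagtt
Ifit3: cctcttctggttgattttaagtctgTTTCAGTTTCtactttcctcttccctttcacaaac
Ifit1: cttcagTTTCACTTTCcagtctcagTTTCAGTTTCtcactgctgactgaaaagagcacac
Rsad2: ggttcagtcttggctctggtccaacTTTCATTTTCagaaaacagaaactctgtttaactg
B2m: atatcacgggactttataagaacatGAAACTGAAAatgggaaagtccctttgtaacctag
H2-T23: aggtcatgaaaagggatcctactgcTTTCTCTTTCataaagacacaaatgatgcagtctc
Bst2 and Ifit1 each held 2 matches in their window, and those of Bst2 overlapped.

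Genes of the lysosome, where microglia break down what they take up, rose at 21 of 34 tested (median 0.95). Of the 21, 10 are also on another list, and the 23 tested genes on no other list had a median of 0.38. Cd68, a membrane protein of macrophage lysosomes, rose by 3.16 ± 0.19, the proteases Ctss and Ctsz by 2.17 ± 0.16 and 1.93 ± 0.15, and the cholesterol carrier Npc2 by 1.25 ± 0.11. The gene model Gm49369 rose by 2.25 ± 0.14 and overlaps the cathepsin gene Ctsd on the same strand, so reads of the pair cannot be told apart in this table. Of 21 lipid-handling genes, 10 rose (median 0.62), among them Lpcat2 (1.07 ± 0.16) and the cholesterol exporter Abca1 (1.09 ± 0.21). Of 28 genes of cholesterol and fatty acid synthesis, 3 rose (median 0.28), among them the regulator Srebf1 (0.64 ± 0.12) and the synthase Hmgcs1 (0.57 ± 0.13). The share was 10.7%, against 4.56% of all genes, and over the 22 alternatives run 2 to 13 of them rose. Of 13 inflammasome, interleukin-1 and tumour necrosis factor genes, 5 rose (median 0.75), with the inflammasome adaptor Pycard at 2.02 ± 0.18, Tnfrsf1a at 1.84 ± 0.19 and Lcn2 at 3.53 ± 0.52. Antioxidant and metal-binding genes rose at 6 of 32, namely Nfe2l2, Prdx6, Mt2, Ftl1, Mt1 and Gpx1, by 0.58 to 1.19.

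Reactive astrocyte genes rose at 19 of 25 tested (median 1.67). Of the 19, 10 are also on another list, among them C4b, Serpina3n, Psmb8, Cd14, Osmr, Lcn2, Hspb1, Cd109 and Gbp2. The 12 tested genes on no other list had a median of 1.74, and 9 of them rose. Gfap, the astrocytic intermediate filament, had 243 to 457 CPM in FAD CD38 mice (median 412) and 59.9 to 77.4 CPM in WT mice (median 66.5), a rise of 2.53 ± 0.14 (adjusted p = 1.64e-10). Serpina3n (2.22 ± 0.17), Vim (2.05 ± 0.19), Aspg (4.19 ± 0.40) and Osmr (2.36 ± 0.26) rose with it. Of 20 genes of resting astrocytes, 3 rose (median 0.31), among them the transcription factor Sox9 (0.70 ± 0.14) and the water channel Aqp4 (1.07 ± 0.25). That count was 7 without the FAD CD38 well of pool 7, 6 without the second WT well of pool 8 and 7 without both. The small heat shock protein Hspb1 rose by 1.54 ± 0.37 with all wells and by 1.09 without the pool 7 well.

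Oligodendrocyte genes were split. Of 24 genes of myelin and its cells, Cldn11 (1.01 ± 0.12) and Gsn (1.08 ± 0.17) rose and none fell (median 0.10). That was 8.33% of the list, against 4.56% of all genes. Of 13 genes that oligodendrocytes induce in disease, 9 rose (median 1.55), but 6 of the 9 are also on the microglial, class I or astrocyte lists. Outside those lists Endou rose by 2.84 ± 0.20 and Klk6, a serine protease, by 2.82 ± 0.26. Klk6 had 9.76 to 21.4 CPM in FAD CD38 mice and 1.01 to 3.13 CPM in WT mice. Of 12 precursor genes, Matn4 rose (0.75 ± 0.20), or 8.33% of the list against 4.56% of all genes. Matn4 did not pass in 11 of 21 alternatives, among them DESeq2, leaving out the pool 7 well and leaving out each of pools 6, 7, 8, 10 and 11. None of 20 endothelial and mural genes passed (median 0.07). For lymphocytes, Ccl5 (2.35 ± 0.35) and Ighm (0.84 ± 0.20) were the only list members tested, and both rose. Ccl5 is also on the chemokine list, and Ighm did not pass in 5 of 22 alternatives. The 12 other members in the table were too low to test, with at most 43 counts over the FAD CD38 mice and 55 over the WT mice. Named after their values were seen, these went both ways. Cd3d had 18 counts over the FAD CD38 mice and 3 over the WT mice, and Nkg7 21 and 3. Trac had 24 and 44, and Trbc2 43 and 55. Of the neutrophil and monocyte list, Ly6c2 was tested and had −0.31 ± 0.25, and 9 others held at most 56 counts over the FAD CD38 mice and 58 over the WT mice. None of 14 cortical layer genes, 14 striatum and thalamus genes and 4 erythrocyte genes passed. The 4 erythrocyte genes were all above 0 against WT, by 1.24 to 1.49 (median 1.38), and all above 0 against FAD IgG mice (median 0.84). Their summed level was 75.6 to 552 CPM in FAD CD38 mice (median 195) and 46.7 to 383 CPM in WT mice (median 68.0). The part of blood in the other lists was not tested.

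**Figure D2:**
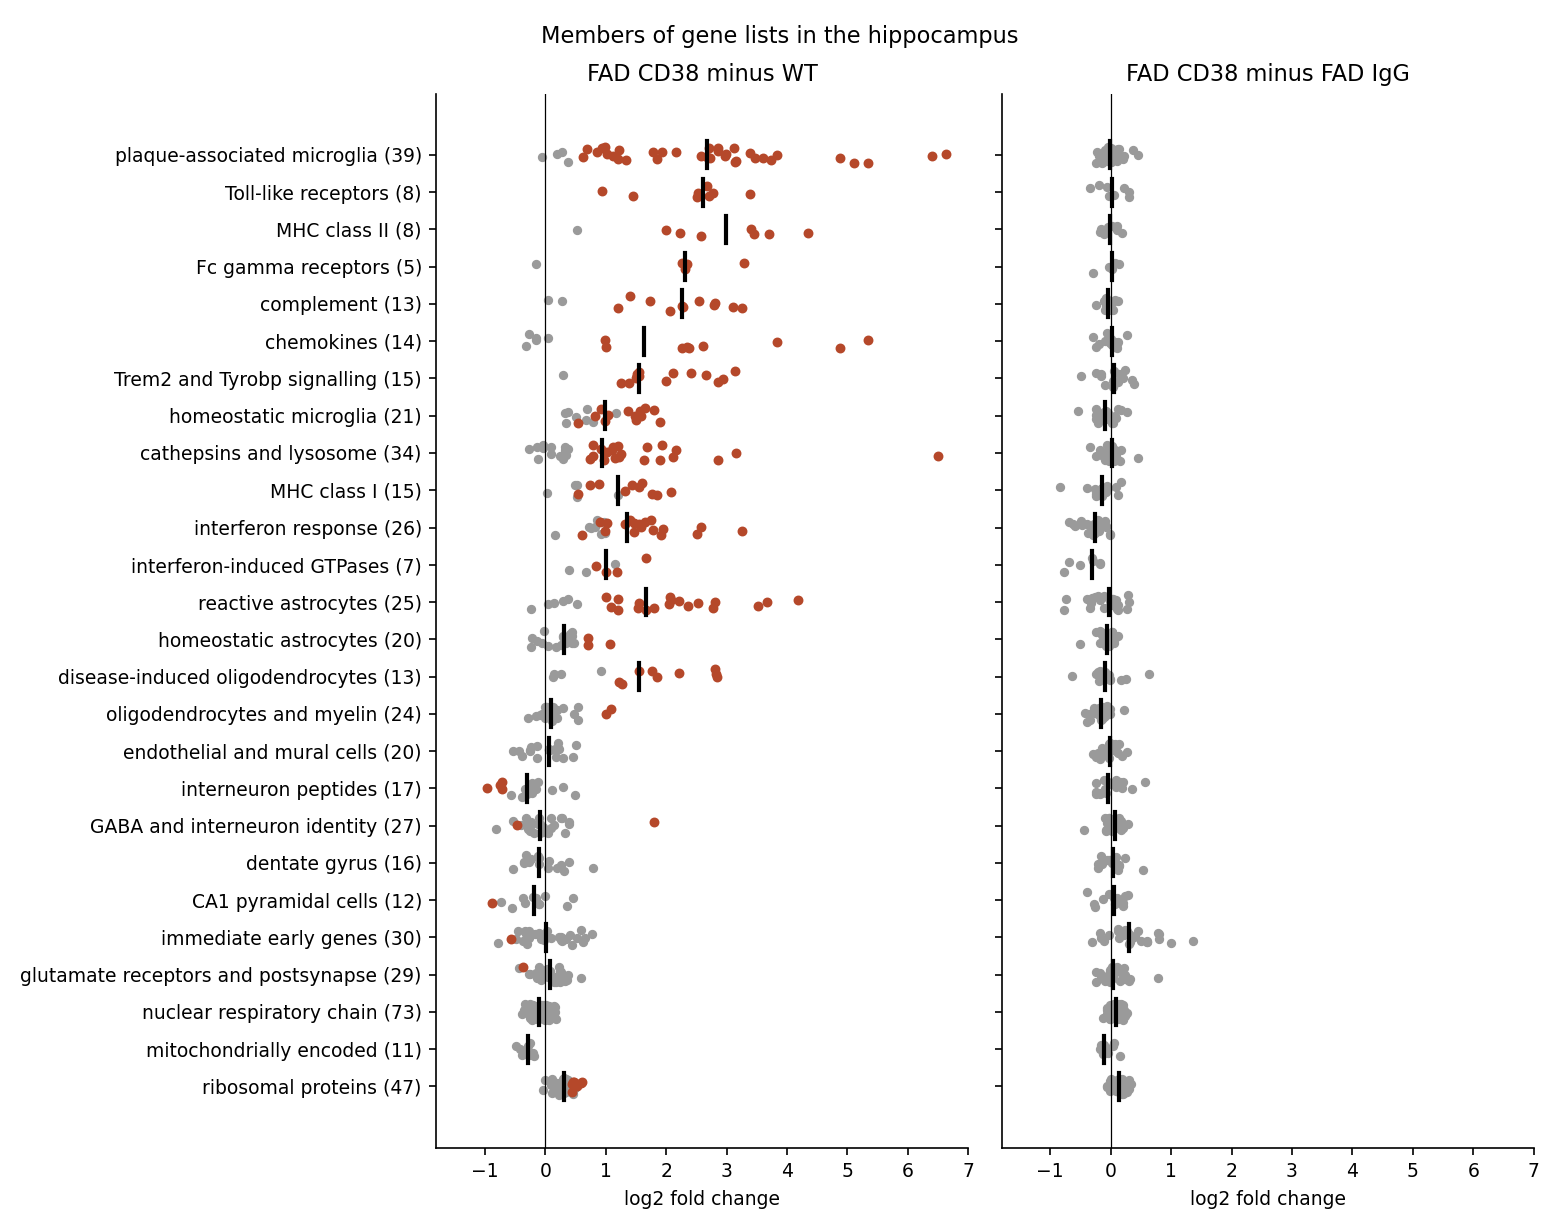
Log2 fold changes of the tested members of gene lists, with FAD CD38 minus WT left and FAD CD38 minus FAD IgG right; each point is a gene, red points passed at an adjusted p under 0.05, black ticks are list medians and numbers in brackets are members tested. The microglial, class II and astrocyte lists lie well to the right of 0 against WT, and no point is red against FAD IgG.

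Of 17 interneuron peptide genes tested, 4 fell and none rose, and 14 of 17 fold changes were below 0 (median −0.31), against 48.5% of all genes below 0 and 0.754% called lower. Beside Crhbp and Cort, Pnoc, the precursor of nociceptin, fell by 0.72 ± 0.16 on the log2 scale, with 7.56 to 11.1 CPM in FAD CD38 mice and 9.32 to 18.1 CPM in WT mice. Grp, gastrin-releasing peptide, had 20.3 to 36.9 CPM in FAD CD38 mice and 26.0 to 66.8 CPM in WT mice (−0.75 ± 0.22, adjusted p = 0.0483), and it did not pass without the pool 7 well (adjusted p = 0.108). Sst, somatostatin, had 36.1 to 121 CPM in FAD CD38 mice (median 97.3) and 89.8 to 170 CPM in WT mice (median 133), with −0.56 ± 0.17 (adjusted p = 0.0562). Its lowest value was that of the pool 7 mouse, and without that well the difference was −0.39 (adjusted p = 0.0325). Npy, neuropeptide Y, had 113 to 137 CPM in 6 FAD CD38 mice and 688 CPM in the pool 7 mouse, against 122 to 242 CPM in WT mice. Its log2 difference was −0.13 with all wells, −0.51 without the pool 7 well (adjusted p = 0.0688) and −0.60 without both wells that stood apart (adjusted p = 0.0208). Without both wells 7 of the 17 fell. Over the 22 alternatives run, 1 to 8 of the 17 fell. Cck, Vip, Tac1, Tac2, Nxph1, Adcyap1, Calca and Crh were below 0 by 0.15 to 0.38 and did not pass. Pdyn (0.49 ± 0.19), Nos1 (0.29 ± 0.29) and Penk (0.12 ± 0.38) were above 0 and did not pass.

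**Figure D3:**
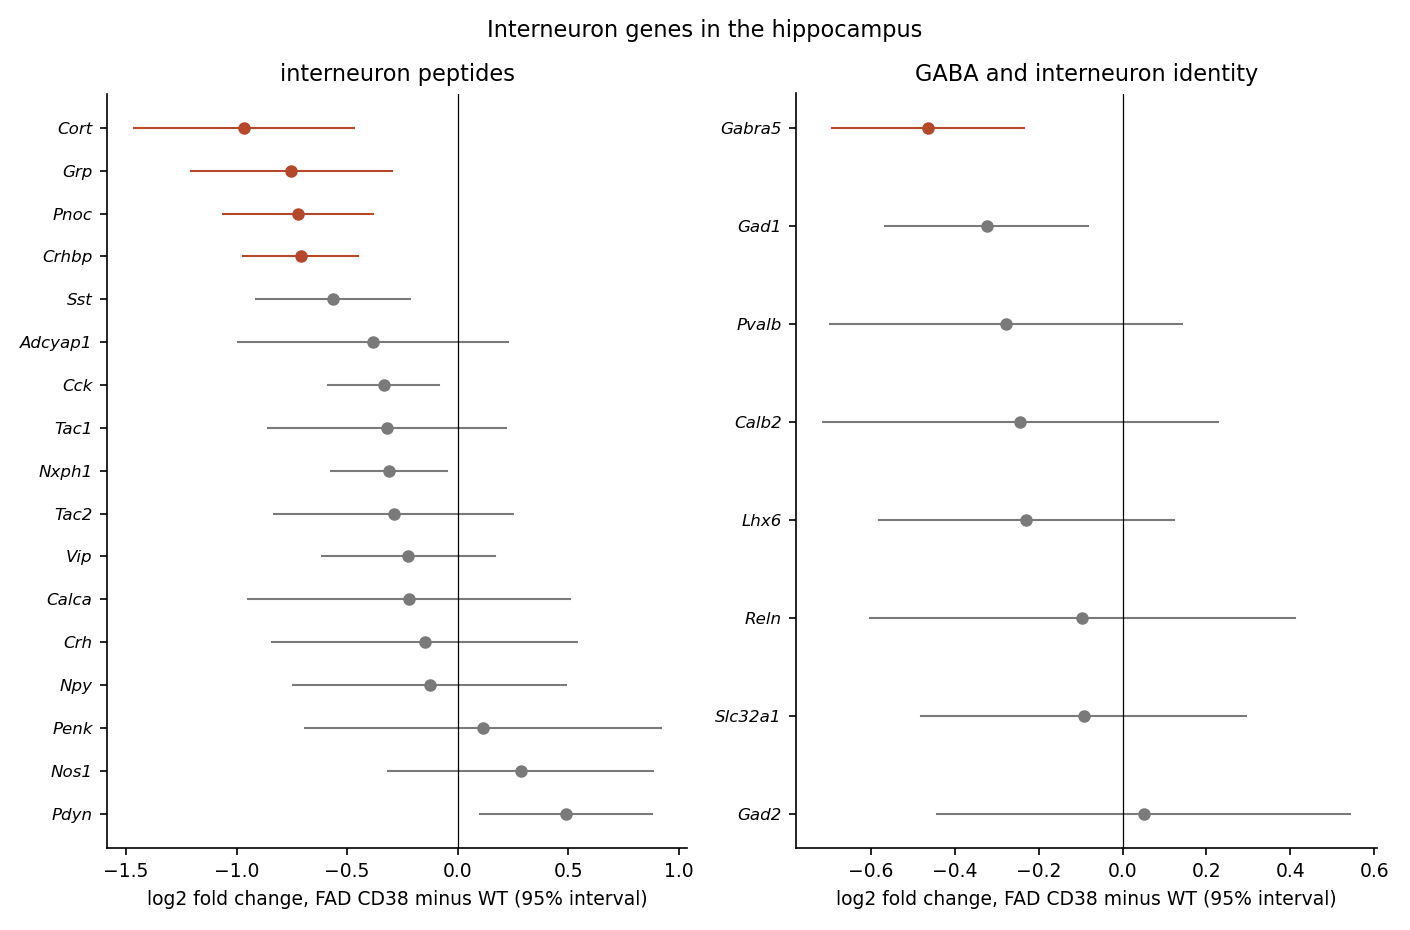
Log2 fold changes, FAD CD38 minus WT, with 95% intervals for all tested interneuron peptide genes (left) and the 8 genes of GABA and interneuron identity named in the text (right); red genes passed at an adjusted p under 0.05. Cort, Grp, Pnoc and Crhbp lie below 0, and Gabra5 lies below 0 among the identity genes.

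The letters TGACG, the core of the cAMP response element through which activity drives somatostatin transcription, lay within 250 bases before the start of 9 of 13 peptide genes with a promoter (69.2%), against 31.1% of the tested genes with one. They were found at 31.5% of the genes that fell and 21% of those that rose. Of the 9, Crhbp and Cort fell, and Adcyap1, Calca, Cck, Nos1, Sst, Tac1 and Vip did not pass with all wells. The windows show the marker peptides beside Sst, which was the 1 peptide gene of 13 with the full palindrome TGACGTCA, a motif that contains TGACG on each strand. Capitals mark the match or its reverse complement. The windows lie at chr13:95444864-95444923 (Crhbp, minus), chr4:149126764-149126823 (Cort, minus) and chr16:23890858-23890917 (Sst, minus).
Crhbp: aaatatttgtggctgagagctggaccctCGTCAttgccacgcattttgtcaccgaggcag
Cort: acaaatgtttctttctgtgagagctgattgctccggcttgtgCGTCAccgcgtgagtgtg
Sst: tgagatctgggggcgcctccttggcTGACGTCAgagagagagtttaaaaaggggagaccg

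Few general interneuron genes passed. Of 27 genes of GABA synthesis, GABA receptors and interneuron identity, 1 rose and 1 fell. The gene that fell was Gabra5, a subunit of extrasynaptic GABA receptors, by 0.46 ± 0.11 on the log2 scale. Gad1 (−0.32 ± 0.12), Gad2 (0.05 ± 0.23), the vesicular GABA carrier Slc32a1 (−0.09 ± 0.19), Pvalb (−0.28 ± 0.20), Lhx6 (−0.23 ± 0.17), Calb2 (−0.24 ± 0.23) and Reln (−0.10 ± 0.24) did not pass. The 95% interval of Slc32a1 ran from −0.48 to 0.29. Gabra5 had 95.8 to 156 CPM in FAD CD38 mice and 176 to 207 CPM in WT mice, with no overlap.

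Few markers of the principal cells passed. None of 16 dentate gyrus genes passed (median −0.11). Of 12 CA1 genes, Spink8 fell by 0.88 ± 0.19 on the log2 scale, with 52.9 to 85.8 CPM in FAD CD38 mice and 47.1 to 169 CPM in WT mice. The lowest WT value of Spink8, 47.1 CPM, lay below all FAD CD38 mice. The other CA1 genes did not pass, with 10 of the 12 below 0 (median −0.18). Of 15 CA3 and CA2 genes the protease inhibitor Cd109 rose (1.2 ± 0.34), which is also on the reactive astrocyte list, and it did not pass without the pool 7 well. Cnih2, an AMPA receptor partner, fell by 0.36 ± 0.09 on the log2 scale as the 1 of 29 postsynaptic genes that passed, and it did not pass in 7 of 22 alternatives, among them leaving out each of pools 6, 7, 9, 10 and 11 (adjusted p up to 0.140). Of 28 vesicle genes Syngr1 rose (0.63 ± 0.11) and Syt5 fell (−0.49 ± 0.12). These were 3.57% each, against 4.56% of all genes higher and 0.754% lower. None of 32 ion channel genes passed (median 0.00). Of 30 immediate early genes, Nr4a1 fell (−0.57 ± 0.15), but not in 6 of 22 alternatives, among them leaving out each of pools 6, 8, 10 and 11. The list had 15 of 30 genes below 0 (median 0.01). Without the pool 7 well 24 of 30 were below 0 (median −0.21) and 3 fell.

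The genes of smallest p among those that fell were, after Crhbp, the synaptic scaffold Lin7b (−0.61 ± 0.12), the neuronal small GTPase Rit2 (−0.62 ± 0.13), Spink8, the potassium channel subunit Kcng2 (−0.55 ± 0.12), Nsmf (−0.47 ± 0.10), the thyroid hormone-binding protein Crym (−0.65 ± 0.14), Mal2 (−0.43 ± 0.10), Pnoc, Efcc1 (−0.86 ± 0.19) and Ccn3 (−0.58 ± 0.13). Lin7b had 13.4 to 24.6 CPM in FAD CD38 mice (median 20.9) and 26.2 to 34.7 CPM in WT mice (median 29.3). Rwdd2a, Lyrm7, Fhl2 and the peptide ligand Apln followed, at −0.52 to −0.78. In each of the 7 pools the FAD CD38 mouse lay below the mean of the WT mice of its pool at all of these genes except Apln, where it did so in 6. These genes were picked for their smallest p in a fit of the same wells, so the count by pool adds no separate test. The falls were all under 1 on the log2 scale, where the 15 leading rises were 2.25 or more.

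None of 73 nuclear-encoded subunits of the respiratory chain passed, 57 were below 0 (median −0.10), and the smallest p were those of Cyc1 (−0.38 ± 0.12) and Atp5b (−0.34 ± 0.13). None of 11 mitochondrially encoded genes passed, and all were below 0 (median −0.29). The FAD CD38 mouse of pool 7 had the lowest mitochondrial share of its group, and without it these medians were −0.03 and −0.11, with 48 of 73 and 10 of 11 below 0. They were −0.15 and −0.36 without the second WT well of pool 8 (60 of 73 and 11 of 11 below 0), and −0.15 and −0.21 without both wells (65 of 73 and 11 of 11). Of 35 genes of glycolysis and the TCA cycle, hexokinase Hk2 rose (1.77 ± 0.20), with 9.45 to 33.6 CPM in FAD CD38 mice and 2.28 to 8.22 CPM in WT mice, while 29 of the 35 were below 0 (median −0.17). The share that rose, 2.86%, was below the 4.56% of all genes. Of 20 genes of CD38 and NAD metabolism, 1 rose (5%, against 4.56% of all genes). This was Parp3 (1.38 ± 0.35), at 2.49 to 4.72 CPM in FAD CD38 mice and 0.669 to 2.28 CPM in WT mice. Parp3 did not pass when pool 6, 7 or 11 was left out. Over the 22 alternatives run, 0 to 3 genes of this list rose. Ribosomal protein genes were above 0 at 45 of 47 (median 0.32) and 7 rose, led by Rpl22 (0.61 ± 0.12). That count was 15 without the second WT well of pool 8.

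The message of Cd38 itself was low and did not differ beyond its spread. It averaged 7.26 ± 1.63 CPM in FAD CD38 mice and 8.08 ± 2.71 CPM in WT mice (SD, n = 7 and 8), with −0.18 ± 0.21 and a 95% interval from −0.62 to 0.26 (adjusted p = 0.691). An antibody binds the protein, so this message does not check the injection. Thy1, a neuronal surface protein, had 520 to 1200 CPM in FAD CD38 mice and 149 to 176 CPM in WT mice, a rise of 2.56 ± 0.13 (adjusted p = 1.52e-10), and was the 1 of 19 excitatory neuron genes that passed. App had 535 to 852 CPM in FAD CD38 mice and 289 to 598 CPM in WT mice (0.72 ± 0.17). In the list of secretases, APP family and tau, 2 of 19 genes rose (10.5%, against 4.56% of all genes), App among them. In several FAD lines, human App is expressed from Thy1 regulatory sequence, and whether transgene reads were counted at App and Thy1 was not tested.

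Set against FAD IgG mice, which share the genotype, FAD CD38 hippocampus had no called gene. Of 12728 genes, 0 were higher and 0 lower in edgeR (0% each), 197 (1.55%) had an unadjusted p under 0.05, and DESeq2 also called 0. The 95% intervals of this difference had a median half-width of 0.395 on the log2 scale over all genes, so at a gene of median precision a smaller estimated change has an interval that includes 0. Cst7 had 79.8 to 238 CPM in FAD CD38 mice and 128 to 217 CPM in FAD IgG mice, a difference of 0.07 (95% interval −0.38 to 0.53). C1qb differed by −0.03 (−0.30 to 0.23), Trem2 by 0.11 (−0.29 to 0.52), Gfap by −0.21 (−0.49 to 0.07), Crhbp by −0.01 (−0.29 to 0.26) and Cort by −0.17 (−0.72 to 0.37). The genes of smallest p were Ddo (−0.71 ± 0.20), Pde7a (0.54 ± 0.15), Csgalnact2 (−0.78 ± 0.22), Depp1 (1.36 ± 0.40) and Cav1 (−0.58 ± 0.17), each at an adjusted p of 0.9998.

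Changes against WT are given side by side for FAD CD38 and FAD IgG mice, which were set against the same WT mice. The plaque microglia list had a median of 2.68 in FAD CD38 and 2.70 in FAD IgG mice, and class II genes 2.99 and 3.13. Reactive astrocyte genes had 1.67 in FAD CD38 and 1.79 in FAD IgG mice, and interneuron peptides −0.31 and −0.42. Interferon response genes had 1.36 in FAD CD38 and 1.63 in FAD IgG mice, and interferon-induced GTPases 1.01 and 1.5. Directly between FAD CD38 and FAD IgG mice, all 26 interferon genes (median −0.25) and all 7 GTPases (median −0.32) were below 0, against 48.5% of all genes, but none of the 26 and 1 of the 7 had an unadjusted p under 0.05. Without the pool 7 well 23 of the 26 were below 0 (median −0.25). The FAD IgG well of pool 9, of high ribosomal RNA, had the highest Ifit3 of its group (61.1 CPM). The direction of the list was not counted without that well. Ifit3 had 23.5 to 44.4 CPM in FAD CD38 mice and 31.8 to 61.1 CPM in FAD IgG mice (−0.40 ± 0.19). Klk6 had 9.76 to 21.4 CPM in FAD CD38 mice and 13.7 to 40.7 CPM in FAD IgG mice (−0.64 ± 0.22). Respiratory chain genes were above 0 at 62 of 73 (median 0.09), and at 71 of 73 without the pool 7 well. Myelin genes were below 0 at 23 of 24 (median −0.16), and at 21 of 24 (median −0.07) without the pool 7 well. Genes of a list share wells and are not independent, so these counts describe a direction in these mice and carry no test.

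The same mice gave cortex, and a WT mouse of pool 7 gave cortex only, so WT had 9 cortex wells and 8 hippocampus wells. The change against WT was compared between regions with the mouse as a block. Of 13447 genes tested, 12 (0.0892%) changed more in the upward direction in hippocampus and 4 (0.0297%) more upward in cortex. Endou rose by 2.77 in hippocampus and 0.81 in cortex (difference 1.96 ± 0.26, adjusted p = 2.27e-05). S100a6, a calcium-binding protein, had 1.97 and 0.71 (difference 1.26 ± 0.19). Cd52 had 3.83 in hippocampus and 2.60 in cortex, H2-T23 1.44 and 0.44, Klk6 2.95 and 1.67, and Cd74 4.62 and 2.5. Gm4951, Nckap1l, Srgn, Lgals1, Lsp1 and Abhd11os completed the 12, with Lsp1 and Abhd11os named although they ranked below the first 10. In the other direction, Serpina3n rose by 2.24 in hippocampus and 3.35 in cortex (difference −1.11 ± 0.24, adjusted p = 0.0382). Pla2g4e, Mal2 and Kcng2 had −1.49, −0.45 and −0.57 in hippocampus and 0.36, 0.02 and 0.10 in cortex. Endou, S100a6 and H2-T23 passed in all 11 alternatives run. Without the pool 7 FAD CD38 mouse, 12 genes were called in hippocampus and 0 in cortex, and without pool 8 Cd74 did not pass (adjusted p = 0.213).

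**Figure D4:**
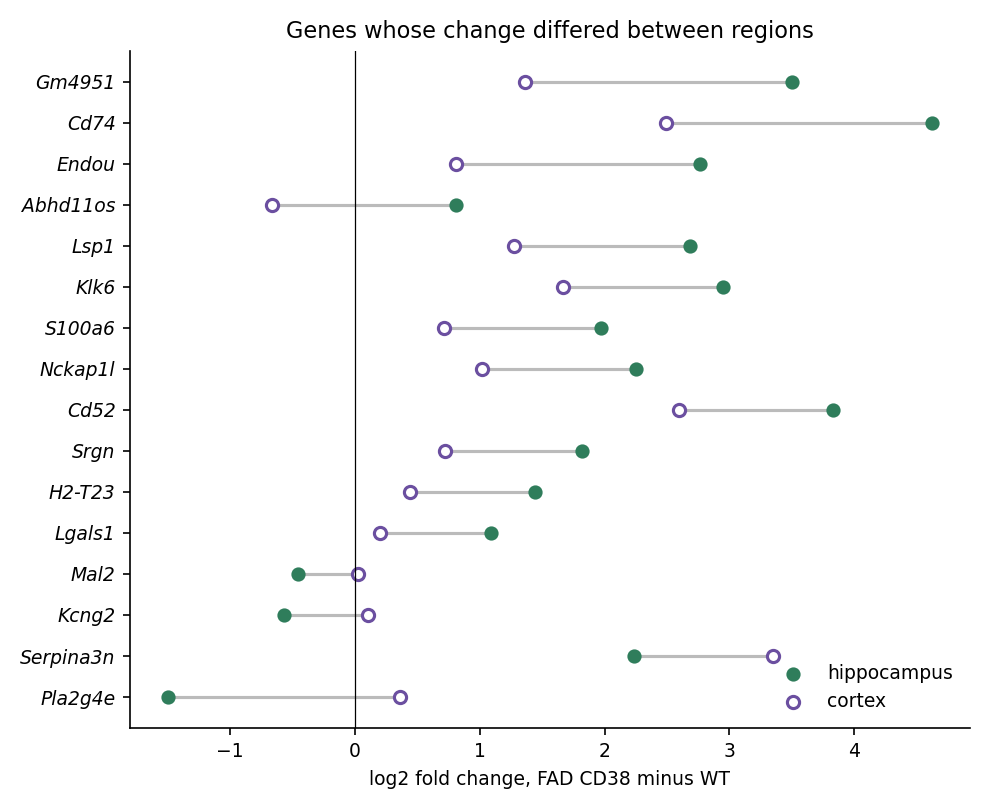
Log2 fold changes, FAD CD38 minus WT, in hippocampus (filled) and cortex (open) for the 16 genes whose change differed between regions at an adjusted p under 0.05. The 12 genes at the top changed more upward in hippocampus, and Mal2, Kcng2, Serpina3n and Pla2g4e more upward in cortex.

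The FAD CD38 mouse of pool 7 differed from its 6 group mates at many genes, which are named here after their values were seen. At 235 genes above 10 CPM it had over 3 times the next FAD CD38 mouse, and at 74 of them over 3 times every other hippocampus well. Among immediate early genes it was the highest FAD CD38 mouse at 22 of 30 and over 3 times the next at 9. Nptx2 had 201 CPM in this mouse, 4.99 to 12.4 CPM in the other FAD CD38 mice and 6.38 to 10.1 CPM in WT mice. Egr3 had 373 CPM in this mouse and 19.9 to 31.3 CPM in the other FAD CD38 mice, and Bdnf 386 CPM and 72.1 to 90.5 CPM. Ttr, the choroid plexus transthyretin, had 18600 CPM in this mouse, 5.97 to 60.2 CPM in the other FAD CD38 mice and 29.0 to 253 CPM in WT mice. In FAD IgG mice Ttr had 9380 CPM in the pool 9 mouse and 9.43 to 67.7 CPM in the others, and Npy had 327 CPM in that mouse and 112 to 156 CPM in the others. The summed level of the choroid plexus and ependyma list was 48.2 to 18750 CPM in FAD CD38 mice and 64.0 to 298 CPM in WT mice, and none of its 9 tested genes passed. Sst and Cst7 were at their lowest FAD CD38 levels in this mouse, and Crhbp at its highest. The comparisons with WT were also made without this well.

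**Figure D5:**
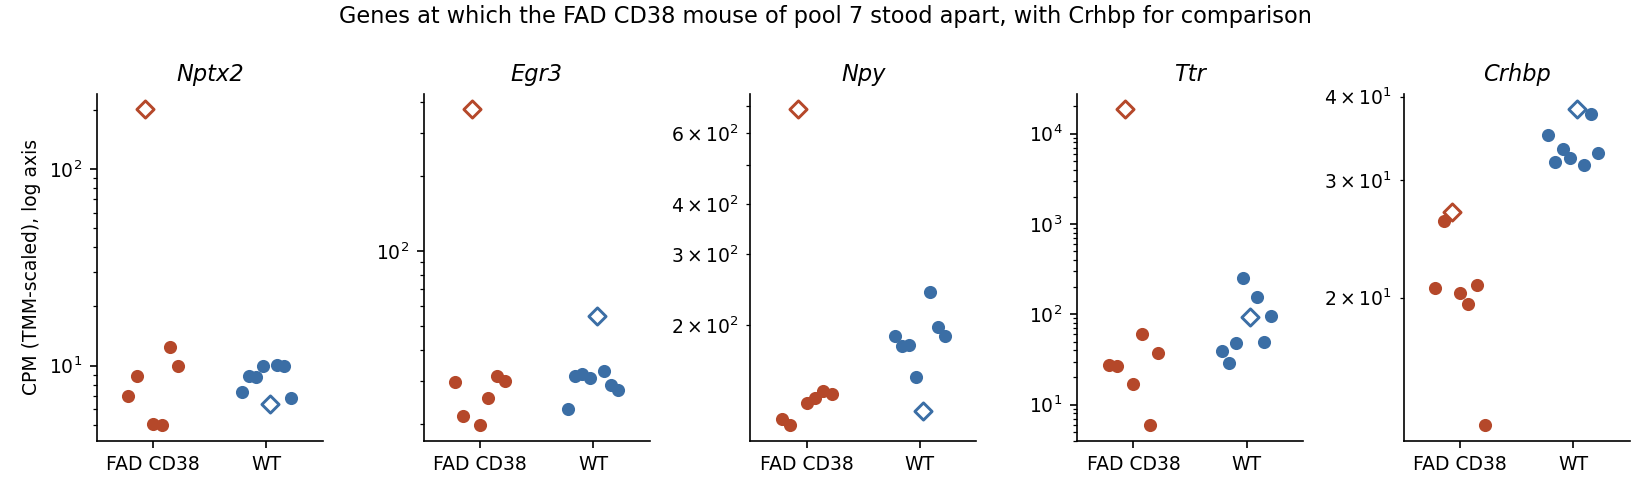
Levels of Nptx2, Egr3, Npy, Ttr and Crhbp in each FAD CD38 (left) and WT (right) hippocampus, in CPM on log axes; white diamonds are the FAD CD38 mouse of pool 7 and the second WT mouse of pool 8. The pool 7 mouse lies far above all other FAD CD38 and WT mice for the first 4 genes and at the top of its own group, below every WT mouse, for Crhbp.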

How the data were processed

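Bulk mcSCRB-seq libraries of total RNA from mouse cortex and hippocampus were deposited as one table of raw counts per gene and well by the authors. The submitters' processing notes list STAR 2.5.3a and bcl2fastq 2.17. Which genome build and counting rule applied, and whether counts are unique molecular identifiers, was not given in the sources used here. Of 20859 symbols, 97.85% had a gene in GENCODE M21. Wells were grouped by name and sheet.

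Counts of the 22 hippocampus wells of the 3 groups were fitted together in edgeR 4.0.16 (R 4.3.3; TMM, minimum count 10, minimum total 15, robust quasi-likelihood) with pool as an additive term and Benjamini-Hochberg adjustment over 12728 genes. The region difference used limma 3.58.1 (voom, mouse as correlated block). CPM are on TMM-scaled library sizes. DESeq2 1.42.0, other filters, scalings and covariates, and each pool left out, were the alternatives. Settings without the wells that stood apart were chosen after seeing the data. Code was tested on simulated data. Named genes were, against WT, the 15 rising and the 15 falling genes with the lowest adjusted p, up to 6 called members of each list (2 where none was called), all members of 6 lists, the check genes, and the first 10 of the other contrasts; others are said to be chosen after their values were seen. Some genes are not reported here. The members and lists were chosen with earlier results of these data known. Replicates differed by more than sampling noise (lowest chi-square per degree of freedom 2.55). Counting intervals and floors cover counting error only.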

Additional observations from a re-analysis of the deposited data

Results flagged for a closer look

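Single mice lay far from the rest of their group in several measures, by Dixon's gap test at its 95% critical value. For normally distributed values the test flags about 1 in 20 groups by chance, and the CPM were not checked for this. The test flagged 59 of the 332 groups of values tested, and most of the flags fell on the wells described above. Nptx2, Egr3, Bdnf and Ttr were among the genes tested and had been named after the pool 7 mouse was seen to stand apart. Their flags in that mouse were fixed in advance, so the 59 cannot be set against the 1 in 20. The FAD CD38 mouse of pool 7 had the highest ribosomal RNA share of its group (24%) and the lowest mitochondrial share (1.25%). In that mouse the level stood far above the other FAD CD38 mice for Abca1 at 26.9 CPM, Bdnf at 386 CPM, Cd109 at 13.4 CPM, Cd14 at 88.2 CPM, Crh at 9.24 CPM and Ctsd at 50.4 CPM. The same held for Egr3 at 373 CPM, Gad2 at 84.9 CPM, H2-Ob at 8.40 CPM, Hspb1 at 131 CPM and Nptx2 at 201 CPM. It also held for Npy at 688 CPM, Penk at 58.8 CPM, Prox1 at 79.8 CPM, Rpl22 at 318 CPM, Slc32a1 at 13.4 CPM and Stat2 at 15.1 CPM. Further genes were Tnfrsf1a at 24.4 CPM and Ttr at 18600 CPM. It stood far below the other FAD CD38 mice for Atp5b at 461 CPM, Fcer1g at 182 CPM, Fcgrt at 7.56 CPM, Ftl1 at 870 CPM, Gabra5 at 95.8 CPM and Rit2 at 37.0 CPM. Further low genes were Syngr1 at 98.3 CPM, Thy1 at 520 CPM, Trem2 at 103 CPM and Tyrobp at 247 CPM. The comparisons with WT were also made without this well.

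The second WT mouse of pool 8 had the highest ribosomal RNA share among WT mice (30.5%). It stood far above the other WT mice for Aqp4 at 110 CPM, Egr3 at 54.5 CPM, Itgax at 0.491 CPM, Prox1 at 48.1 CPM and Stat2 at 11.3 CPM. Itgax had 2 counts over all WT mice, so its flag rests on almost no reads. The first WT mouse of pool 8 stood far above the other WT mice for Csf1r at 44.5 CPM. The second WT mouse of pool 8 stood far below the others for Cd14 at 0.981 CPM, Crym at 149 CPM, Ctss at 91.3 CPM, Cyc1 at 157 CPM, Fcgr2b at 0.491 CPM and Ftl1 at 375 CPM. The values of Cd14 and Fcgr2b rest on few counts in this mouse. The other low genes in it were Gsn at 39.2 CPM, Ly86 at 12.8 CPM, S100a6 at 15.2 CPM and Serpina3n at 12.8 CPM. For C4a, the FAD CD38 mouse of pool 8 was far above the others, at 19.6 CPM. For Ly86, the FAD CD38 mouse of pool 10 was far above the others, at 169 CPM. For Nckap1l, the FAD CD38 mouse of pool 10 was far above the others, at 14.9 CPM. For Psmb8, the FAD CD38 mouse of pool 8 was far above the others, at 70.3 CPM. For Cd74, the WT mouse of pool 6 was far above the others, at 2.85 CPM. For Depp1, the WT mouse of pool 10 was far above the others, at 7.58 CPM. For Fibcd1, the WT mouse of pool 6 was far above the others, at 62.3 CPM. For Irgm1, the WT mouse of pool 5 was far below the others, at 4.57 CPM. For Lcn2, the WT mouse of pool 7 was far above the others, at 2.01 CPM. For Pycard, the WT mouse of pool 9 was far above the others, at 9.69 CPM. For Syt5, the WT mouse of pool 6 was far above the others, at 225 CPM.

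The change against WT differed between hippocampus and cortex, by the test of the difference itself, at 16 genes. On the log2 scale, the change in hippocampus minus that in cortex was larger than 0 for Endou (1.96), S100a6 (1.26), Cd52 (1.23), Lgals1 (0.88), H2-T23 (1.0), Klk6 (1.28), Gm4951 (2.14), Nckap1l (1.24), Cd74 (2.12), Srgn (1.09), Lsp1 (1.41) and Abhd11os (1.47). It was smaller than 0 for Pla2g4e (−1.85), Mal2 (−0.48), Serpina3n (−1.11) and Kcng2 (−0.67).

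The FAD mouse whose treatment labels conflict was in no comparison. In its hippocampus Cst7 had 151 CPM, C1qb 578 CPM, Thy1 1020 CPM and Gfap 353 CPM. Each is above the highest WT mouse scaled the same way, at 4.19, 132, 173 and 76.0 CPM.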

How the results depend on the processing

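Against WT, the number of higher genes was 580 and lay between 419 and 671 when each pool was left out in turn, and that of lower genes was 96 and lay between 19 and 287. With only the 2 groups compared in the fit, 354 genes were higher and 20 lower. With voom and sample quality weights 1553 were higher and 1203 lower, with the ribosomal RNA share as a covariate 1036 and 476, and without wells above 10% ribosomal RNA 880 and 475. DESeq2 gave 238 lower genes, no filter on low counts 56, and counting the mouse of conflicting labels as CD38 147. Leaving out the FAD CD38 well of pool 7 gave 59 lower genes, leaving out the second WT well of pool 8 gave 289, and leaving out both gave 389. The cause was not tested. The 580 and 96 genes were all called with voom weights and with the ribosomal RNA covariate. Crhbp, Cst7 and C1qb passed in every alternative run. Calls lost most often were those of Matn4 (11 of 21 alternatives), Cd109 (9 of 19), Grp (9 of 22), Gbp2 (8), Cnih2 (7), Nr4a1 (6), Ighm (5) and Cort (4). Against FAD IgG, 0 genes were called in every alternative. For the region difference, 7 genes had the higher change in hippocampus without the mouse block, and 7 without pool in the model. In cortex the number was 0 without the mouse block, 0 without FAD IgG mice, 1 without pool in the model and 0 without the pool 7 FAD CD38 mouse. Leaving out each pool in turn gave 4 to 25 genes in hippocampus and 0 to 7 in cortex. The intervals against WT had a median half-width of 0.378 on the log2 scale, and depth limits what can be called at genes of few counts.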
